A study of Mus musculus with 6 samples.

Results

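H19, Meg3, Gpc3, Igf2bp3 and Igfbpl1 are imprinted or fetal growth control genes, and the array comparison of embryonic and adult choroid plexus gave a higher value at E15 for all 5 of them. They were found as the transcript clusters (the sets of exon probe sets that together measure a gene) whose symbol field holds the gene. Each gene had 1 cluster with no other symbol in it, so 5 clusters stand for the 5 genes among the 3956 clusters of both tables used here. These genes were picked for their difference between E15 and adult, so their own differences are given as a description and carry no test.

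Lateral ventricular choroid plexus, the tissue inside the lateral ventricles that secretes cerebrospinal fluid, was taken whole from Swiss Webster mice. The E15 group was 3 pools of healthy embryos of mixed sex at embryonic day 15, with 30 embryos in each pool according to the labels. The adult group was 3 pools of healthy females with 10 mice in each, aged 10 weeks by the methods and over 3 months by the supplementary description. The supplementary description gives larger E15 pools and smaller adult pools than the labels, and calls the embryos unsexed. No group carried a treatment or a transgene. RNA of each pool was amplified in 2 rounds and hybridised to 1 Affymetrix mouse exon array, 6 arrays in all. The whole tissue holds epithelium, vessels and stroma, and fewer cells of a type and less RNA per cell cannot be told apart in it.

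For each cluster the deposited tables give 1 log2 value per age, in which the 3 arrays of that age were merged, on a scale that lies near 0 for the mean of the ages. Such values show how far the ages were apart but not how abundant an RNA was, so genes cannot be ranked by their expression. Every difference below was taken as adult minus E15, so that a negative one stands for a higher value at E15, and folds were calculated from it. There is no spread between replicates to set a difference against, and the number of arrays limits the precision. The gene-level table lists 1805 clusters that passed the authors' corrected p of 0.05 and 2-fold threshold. The splicing index table lists 3369 clusters chosen on exon values and gives the same merged values, for clusters below 2-fold too. A gene without an entry passed neither selection, which does not say that it was not expressed.

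Imprinted genes are expressed mainly from the copy inherited from 1 parent, under control regions whose DNA methylation differs between the parental copies, and many of them govern fetal growth. H19 and Meg3 are maternally expressed long non-coding RNAs of 2 such domains. In many tissues their partners Igf2 and Dlk1 are expressed from the paternal copy. Which parental copy was expressed in the choroid plexus was not measured here. Gpc3 is an X-linked glypican, a heparan sulfate proteoglycan held to the cell surface by a lipid anchor, and its loss causes overgrowth. Igf2bp3 binds RNAs that include the Igf2 message, and Igfbpl1 is a secreted relative of the IGF-binding proteins. In the choroid plexus and meninges, Igf2 is a known source of growth factor for the cerebrospinal fluid.

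H19 had a merged value of 3.12 at E15 and -3.22 in adult. The difference was -6.34, a fold of 80.9 toward E15, and no other cluster of either table lay further in that direction. The cluster was present in both tables, and 6 of its probe sets entered the splicing index. The clusters that came next in the order of the difference were Slc16a10, a transporter of thyroid hormones and aromatic amino acids, with -6.06, then Gpc3 itself and Chodl with -5.66. Besides the long RNA, the H19 gene holds the hairpin of a microRNA, and the mature forms are shown because they are the small RNA products of the gene with the largest difference (RefSeq, GRCm38.p6, chromosome 7, minus strand, written 5′ to 3′ with the seed, bases 2 to 8, in capitals). The arrays gave no values for these microRNAs.
mmu-miR-675-5p: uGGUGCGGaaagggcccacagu
mmu-miR-675-3p: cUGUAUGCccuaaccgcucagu

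Gpc3 had 2.85 at E15 and -3.07 in adult. Its difference of -5.92 was a fold of 60.4 and held place 3 among the clusters of the gene-level table. It was present in both tables, with 11 probe sets in the splicing index. The cluster just below it after Chodl was that of the embryonic globin Hbb-y, with -5.55.

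Igfbpl1 had 1.85 at E15 and -2.10 in adult, a difference of -3.95 and a fold of 15.4, at place 16 of the gene-level table. Its neighbours in the order were Sulf2 with -3.99, an enzyme that trims sulfate from heparan sulfate outside the cell, and Abcg5 with -3.82. Igf2bp3 had 1.64 at E15 and -1.70 in adult, a difference of -3.34 and a fold of 10.1, at place 32. The clusters next to it were Tmem26 with -3.36 and Prc1, a protein of the dividing cell's midzone, with -3.32. Both genes were in the gene-level table alone. The sum of the adult and the E15 value was -0.25 for Igfbpl1 and -0.05 for Igf2bp3.

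Meg3 was absent from the gene-level table, unlike the other members, and was listed for its splicing index, with 5 probe sets. Its merged value was 1.30 at E15 and -0.38 in adult, a difference of -1.68 and a fold of 3.20. This difference would hold place 351 in the gene-level table, beside Amac1 (-1.68) and Tubb5 (-1.68). Among the splicing index list, 67 clusters outside the gene-level table reached 2-fold, 42 of them toward E15, and Meg3 held place 5 of these 42 by its difference. The sum of its adult and E15 values was 0.92, a size that 0.581% of all clusters exceeded and that 4 clusters of the gene-level table reached. The median size of that sum was 0.10 in the gene-level table and 0.57 in the 67 clusters. By its merged values Meg3 was past the 2-fold threshold, yet it is not among the differences that the authors called at the gene level. What the single arrays held could not be seen. Whether Meg3 missed the corrected p or the filter on expression was therefore not analysed here. The Meg3 gene also spans microRNA hairpins, of which the miR-770 pair is shown as a counterpart to that of H19, with the seed in capitals (RefSeq, GRCm38.p6, chromosome 12, plus strand). Their seeds differ from those of miR-675, and the arrays gave no values for them either.
mmu-miR-770-5p: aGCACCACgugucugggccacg
mmu-miR-770-3p: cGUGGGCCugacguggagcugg

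**Figure D1:**
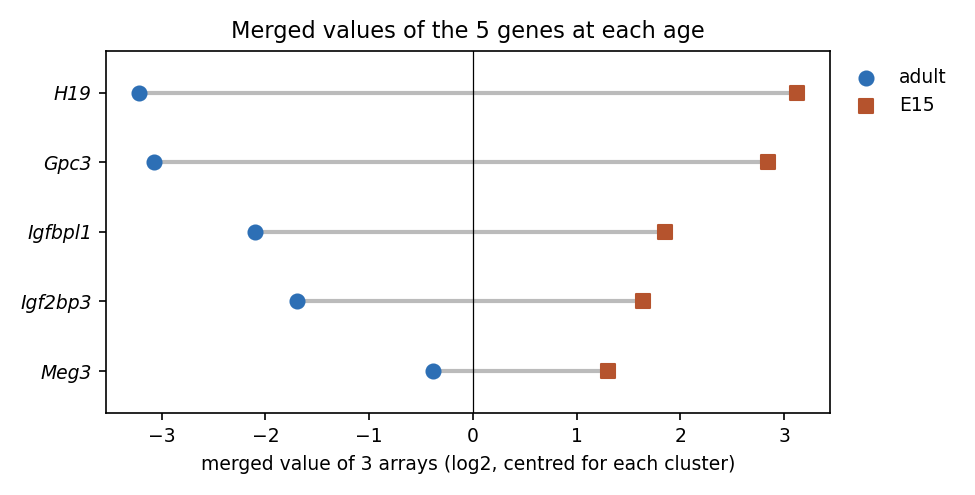
The merged log2 value of each gene in adult (blue circles) and at E15 (orange squares), on a scale centred for each cluster, with a line joining the ages. The E15 value is the higher in all 5 genes, from 1.30 for Meg3 to 3.12 for H19, and the pair of Meg3 is shifted to the right of 0. Points are merged values of 3 arrays and have no error bars.

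The 5 differences ran from -6.34 to -1.68, with a median of -3.95. Folds of 10 or more were found for 4 of the 5, against 0.809% of the 3956 clusters of both tables that reached 10-fold toward E15, and all 5 reached 2-fold toward E15, as 24.4% of the clusters did, and 0 reached 2-fold toward adult, as 22.9% did. In the gene-level table all 4 listed members lay toward E15, beside 51.2% of its clusters (48.8% toward adult), and all 4 reached 10-fold, beside 1.77%. In the splicing index table all 3 listed members reached 2-fold toward E15, beside 20.5% (17.6% toward adult), and 2 reached 10-fold, beside 0.594%. The genes were chosen from this contrast, so nothing follows from these shares. Re-centring each age on the median of its table added 0.85 to the differences of the gene-level table and 0.16 to those of the splicing index table, and the re-centred differences ran from -5.48 for H19 to -1.51 for Meg3. The gene-level table holds only clusters past 2-fold, so its shift is set by that selection, and counts after it are given as values alone. After it 15.5% of the gene-level clusters lay at least 2-fold toward E15 and 48.8% toward adult, the shares beside which re-centred counts below stand. The median fold of the gene-level clusters enriched at E15 was 2.78, above which all 5 genes lay. Within the set the fold of H19 was 25.3 times that of Meg3.

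**Figure D2:**
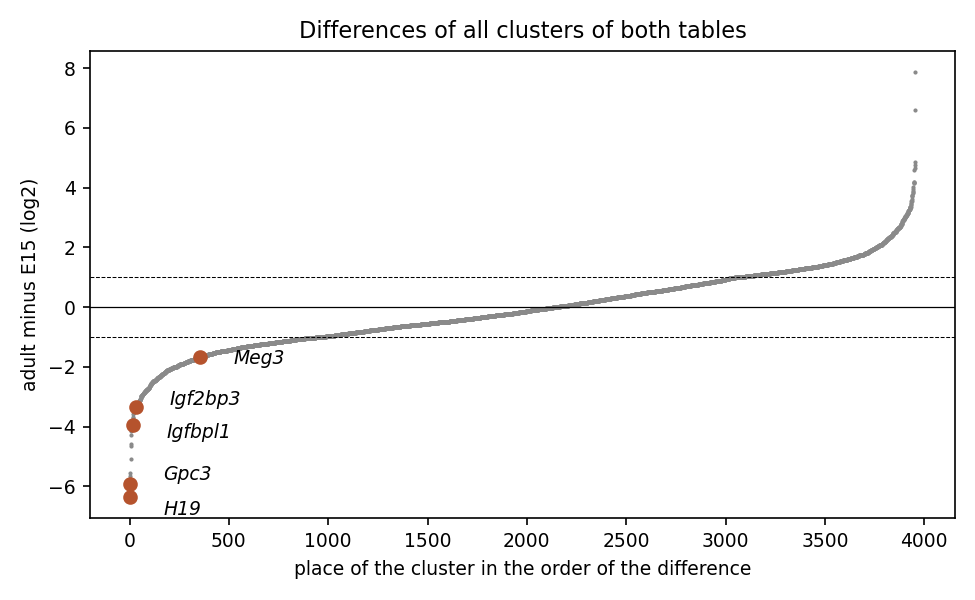
Difference between the ages (adult minus E15, log2) of each of the 3956 clusters of both tables, in order from the most E15-enriched to the most adult-enriched, with the 5 genes as orange points and dashed lines at 2-fold. H19 and Gpc3 lie at the extreme lower end with -6.34 and -5.92, Igfbpl1 and Igf2bp3 follow at -3.95 and -3.34, and Meg3 lies on the curve's shoulder at -1.68.

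Promoter sequences matched by symbol were found for 3 of the 5 genes in the RefSeq table (GRCm38.p6), each with 250 bases before the transcription start and 50 after it. They are shown because these genes share a direction, and capitals mark each match, on either strand, to TATAAA (the TATA box), CCAAT, TGACGTCA (the CRE), CACGTG (an E-box) or GGGCGG (the GC box, CCGCCC on the other strand). The sequences run 5′ to 3′ on the strand of the gene.
Meg3, chr12:109540746-109541045, plus strand: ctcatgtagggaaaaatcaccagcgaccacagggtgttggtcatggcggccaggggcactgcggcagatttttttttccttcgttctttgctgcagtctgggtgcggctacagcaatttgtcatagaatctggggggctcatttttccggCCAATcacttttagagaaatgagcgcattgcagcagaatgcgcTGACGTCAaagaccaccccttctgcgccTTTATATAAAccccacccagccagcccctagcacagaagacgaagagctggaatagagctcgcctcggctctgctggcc
Gpc3, chrX:52613925-52614224, minus strand: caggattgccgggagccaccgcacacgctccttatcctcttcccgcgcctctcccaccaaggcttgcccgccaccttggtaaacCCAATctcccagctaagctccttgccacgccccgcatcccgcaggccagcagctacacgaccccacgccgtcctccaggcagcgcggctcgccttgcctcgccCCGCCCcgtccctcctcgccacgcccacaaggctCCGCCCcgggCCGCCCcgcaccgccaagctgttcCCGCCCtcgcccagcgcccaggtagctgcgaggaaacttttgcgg
Igf2bp3, chr6:49214905-49215204, minus strand: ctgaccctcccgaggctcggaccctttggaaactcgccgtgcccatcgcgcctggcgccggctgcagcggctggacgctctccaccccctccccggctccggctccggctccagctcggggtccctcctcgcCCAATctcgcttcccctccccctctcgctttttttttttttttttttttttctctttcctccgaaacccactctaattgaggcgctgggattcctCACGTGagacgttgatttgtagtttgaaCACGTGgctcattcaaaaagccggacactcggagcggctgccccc

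All 3 windows shown held a CCAAT, which 37.4% of the 32851 promoter windows of the table held, and no other of these motifs was common to them. The second window listed for Meg3, which is not shown, held neither a CCAAT nor any other of these motifs. The Meg3 window, the first of 2 listed for this gene, had a TGACGTCA from base -57, found in 1.79% of windows, and overlapping TATAAA matches on both strands from -29 and -25, found in 13.6%. The Gpc3 window had 4 GGGCGG matches, a motif in 35.7% of windows, and neither a TATAAA nor an E-box. The Igf2bp3 window had CACGTG at -23 and again at 6, a motif in 7.15% of windows. The GC content was 53.7% for Meg3, 70.7% for Gpc3 and 60.3% for Igf2bp3, against a median of 52.7% over all windows. These matches describe letters in a window, and no binding was measured.

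The partner genes of the imprinted domains were compared with the members through the gene order of the RefSeq table. Igf2, the fetal growth factor that shares its enhancers with H19, had a difference of 0.29 (0.15 in adult and -0.14 at E15), a fold of 1.22. Ins2, the insulin gene beyond it, had 0.62. The H19 difference minus the Igf2 difference was -6.63 on the log2 scale. On the other side Lsp1, a leukocyte protein that binds actin, was higher at E15 and just short of 2-fold. Among the 10 nearest genes on each side of H19 these 3 had a cluster. Further along, and within reach only when non-coding genes were left out of the order, the cation channel gene Trpm5 had -2.80, a fold of 6.94 toward E15.

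In the Meg3 domain, Dlk1, which encodes a membrane ligand related to those of Notch, lay 2.14-fold toward E15 (a difference of -1.09) in the gene-level table. Its re-centred difference of -0.24 was below 2-fold. Its values were 0.65 at E15 and -0.45 in adult. Rtl1, Rian, Mirg and Dio3 of the same domain had no entry in either table.

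Beside Gpc3 on the X chromosome lies Gpc4, a glypican of the same family, and its difference was 1.39, a fold of 2.62 toward adult (0.75 in adult and -0.64 at E15). Hs6st2, 7 places along on the same side, encodes an enzyme that adds sulfate to heparan sulfate and had 1.28, a fold of 2.43 toward adult. These adjoining glypican genes thus lay on opposite sides, 60.4-fold toward E15 and 2.62-fold toward adult. Near Igfbpl1, Tdrd7, 3 places away, had 0.39, and Tmod1, 5 places away, which caps actin filaments, had 3.06, a fold of 8.36 toward adult. No gene within 10 places of Igf2bp3 had a cluster. In all, 8 clusters were found for the 10 nearest genes on each side of the 5 members, with 1 enriched at E15, 3 enriched in adult and 4 below 2-fold, beside 24.4% and 22.9% of all clusters past 2-fold toward E15 and toward adult. With non-coding genes left out of the order, 16 neighbour clusters were found, 4 of them enriched at E15, 3 in adult and 9 below 2-fold.

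**Figure D3:**
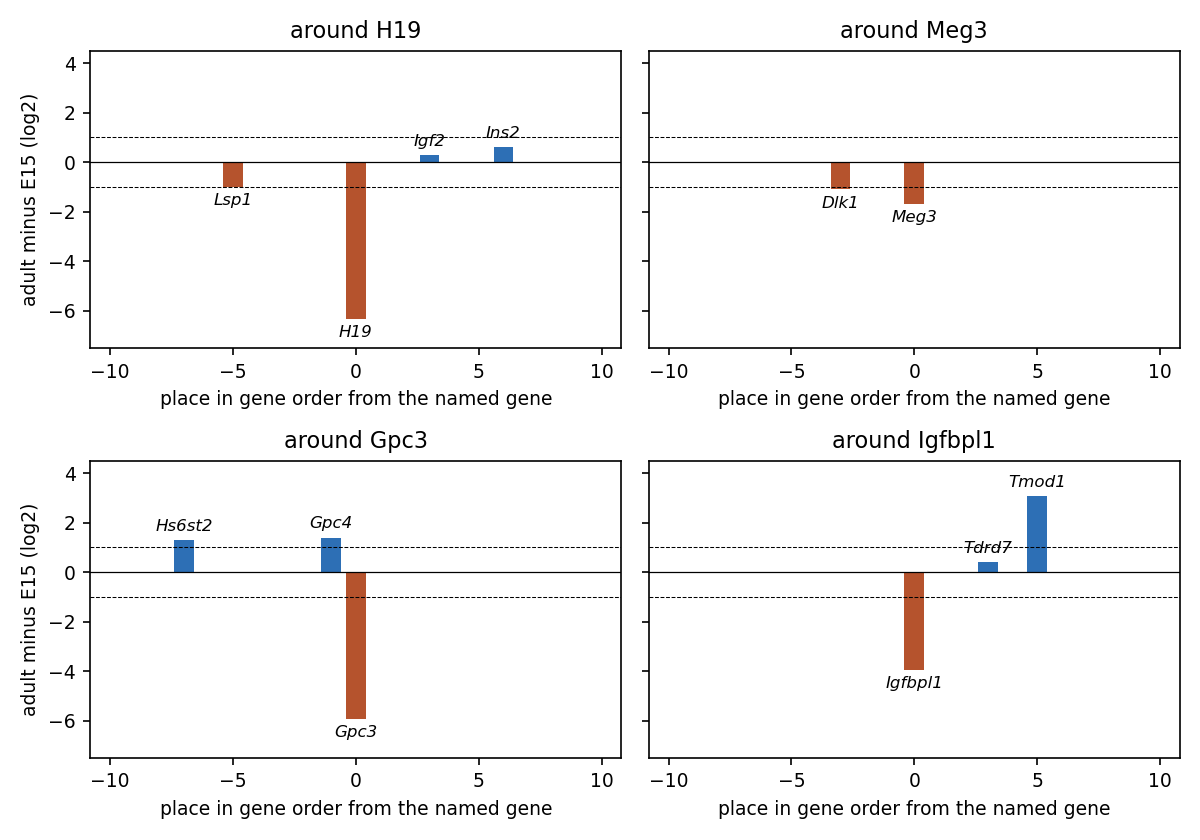
Difference (adult minus E15, log2) of the named gene at place 0 and of its neighbours with a cluster, against their place in the order of genes along the chromosome, with orange bars for values toward E15, blue bars for values toward adult and dashed lines at 2-fold. Igf2bp3, which had no neighbour with a cluster, is left out. H19 stands at -6.34 beside Igf2 at 0.29, Meg3 and Dlk1 lie on the same side, and Gpc3 and Gpc4 lie on opposite sides. Places without a bar have no cluster in either table.

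A list of 82 imprinted genes was looked up next, of which 25 had a cluster. The list goes by name, and whether each gene is expressed from 1 parental copy in this tissue was not measured. In both tables together 8 clusters were enriched at E15 by at least 2-fold, 5 were enriched in adult and 12 were below 2-fold, with a median difference of 0.16 against -0.16 over all clusters. The share enriched at E15 was 32.0%, against 24.4% of all clusters, and that enriched in adult was 20%, against 22.9%. Without H19 and Meg3 the counts were 6, 5 and 12. Apart from these members, those enriched at E15 were Asb4 (-3.28), Slc38a4 (-2.06), Grb10 (-1.91), Ndn (-1.66), Gatm (-1.52) and Dlk1 (-1.09). Asb4 is a substrate adaptor of an E3 ubiquitin ligase and Slc38a4 a carrier of amino acids that is prominent in placenta. Grb10 binds insulin and IGF1 receptors and restrains their signal, and Ndn is a regulator of growth that is prominent in neurons.

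The imprinted genes enriched in adult were Nap1l5 (1.86), Ampd3 (1.75), Pon3 (1.53), Zrsr1 (1.38) and Slc22a18 (1.05). Pon3 is a lactonase, Ampd3 deaminates AMP and Slc22a18 is a carrier for organic cations. The 12 clusters below 2-fold ran from Ddc with -0.60 to Rasgrf1 with 0.95. Igf2r, the receptor that clears IGF2, had 0.36 and Gnas had -0.13, a sign that turns on re-centring. Cdkn1c, Peg3, Mest, Nnat, Peg10 and Plagl1, which are also imprinted regulators of growth or development, had no entry in either table. In the gene-level table alone the split was 7 toward E15 and 5 toward adult, where 51.2% of all clusters lay toward E15. Re-centring made it 4 and 5 of the 12, where 15.5% of all clusters then lay toward E15 and 48.8% toward adult.

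The IGF axis was described by its ligands and receptors, its binding proteins and its signalling genes, 38 genes in all. None of the 4 clusters of ligands and receptors reached 2-fold, with Ins2 at 0.62, Igf2r at 0.36, Igf2 at 0.29 and Insrr, a receptor related to that of insulin, at -0.06, a sign that turns on re-centring. Igf1, Igf1r and Insr had no entry. Among the binding proteins, which hold IGFs outside the cell, Igfbp4 (-1.55, a fold of 2.92) and Igfbp5 (-1.01, a fold of 2.02) were enriched at E15 together with Igfbpl1, and Igfbp7 had 0.70. Re-centred, Igfbp4 had -0.69 and Igfbp5 -0.16, both below 2-fold, and Igfbpl1, chosen for its difference, was past it. A cluster that Pappa2, a protease of IGF-binding proteins, shares with Creg1 was enriched in adult with 1.32 and cannot be assigned to either gene. Stc1 had a difference of 0.00.

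Of the signalling genes, Grb10 was enriched at E15 as given above. Socs2, which damps growth hormone signalling, and Grb14, an adaptor that inhibits the insulin receptor, were enriched in adult with 1.80 and 1.69. Pik3r1, a regulatory subunit of PI3 kinase, had 0.43, and a cluster of the kinase Akt1 shared with a predicted gene had -0.92. Over the whole IGF axis 15 clusters were found, 4 enriched at E15 (26.7%, against 24.4% of all clusters), 3 enriched in adult (20%, against 22.9%) and 8 below 2-fold, with a median difference of 0.29. Without Igfbpl1, which was chosen for its difference, 3 of 14 lay toward E15, a share of 21.4%. In the gene-level table the split was the same for the 7 clusters found, and re-centring made this 2 and 3, beside 15.5% and 48.8% of all clusters.

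All 3 genes of the family of IGF2 mRNA-binding proteins were enriched at E15. Igf2bp1 had 2.02 at E15 and -2.04 in adult, a difference of -4.06 and a fold of 16.6, larger than that of Igf2bp3. Igf2bp2 had 1.20 at E15 and -1.17 in adult, a difference of -2.37 and a fold of 5.19. In a list of 13 genes of this family and of other fetal regulators of RNA and growth, 7 clusters were found, with 4 enriched at E15 and 3 below 2-fold, a share of 57.1% against 24.4% of all clusters. The median difference was -1.24. Without Igf2bp3, which was chosen for its difference, 3 of 6 lay toward E15. The list itself was chosen with earlier results of these data known, so nothing follows from its share. The fourth was Mycn (-1.24), a MYC family transcription factor of progenitor cells. Its re-centred difference of -0.39 was below 2-fold, while the 3 Igf2bp genes stayed past it. The rest were Plag1 (-0.87), Arid3a (-0.85) and Hmga2 (-0.68), a chromatin protein of fetal tissue. Lin28a and Lin28b, which block the maturation of let-7 microRNAs, had no entry.

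Among 41 genes of glypicans, syndecans and heparan sulfate metabolism, 14 clusters were found, with 5 enriched at E15 (35.7%, against 24.4% of all clusters), 6 enriched in adult (42.9%, against 22.9%) and 3 below 2-fold. Without Gpc3, chosen for its difference, 4 of 13 lay toward E15, a share of 30.8%. After Gpc3 the differences toward E15 were those of Sulf2 (-3.99, a fold of 15.9), Ext1, a polymerase of the heparan sulfate chain (-2.46), the basement membrane proteoglycan Agrn (-2.42) and the syndecan Sdc1 (-1.16). Toward adult they were Gpc4 (1.39), the sulfotransferases Hs6st3 (1.31), Hs3st1 (1.31) and Hs6st2 (1.28), and the syndecans Sdc2 (1.08) and Sdc4 (1.08). Re-centred, Sdc1 had -0.30, below 2-fold. Of the 11 gene-level clusters 4 then lay toward E15 and 6 toward adult, beside 15.5% and 48.8% of all gene-level clusters. The other sulfotransferases of the list had no entry. Gpc1, the other glypican with a cluster, had -0.29. Of 16 Hedgehog pathway genes, a pathway whose ligands Gpc3 binds, 2 had a cluster, Gli3 with -3.18 and Gli1 with -0.61. Both are transcription factors of the pathway.

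**Figure D4:**
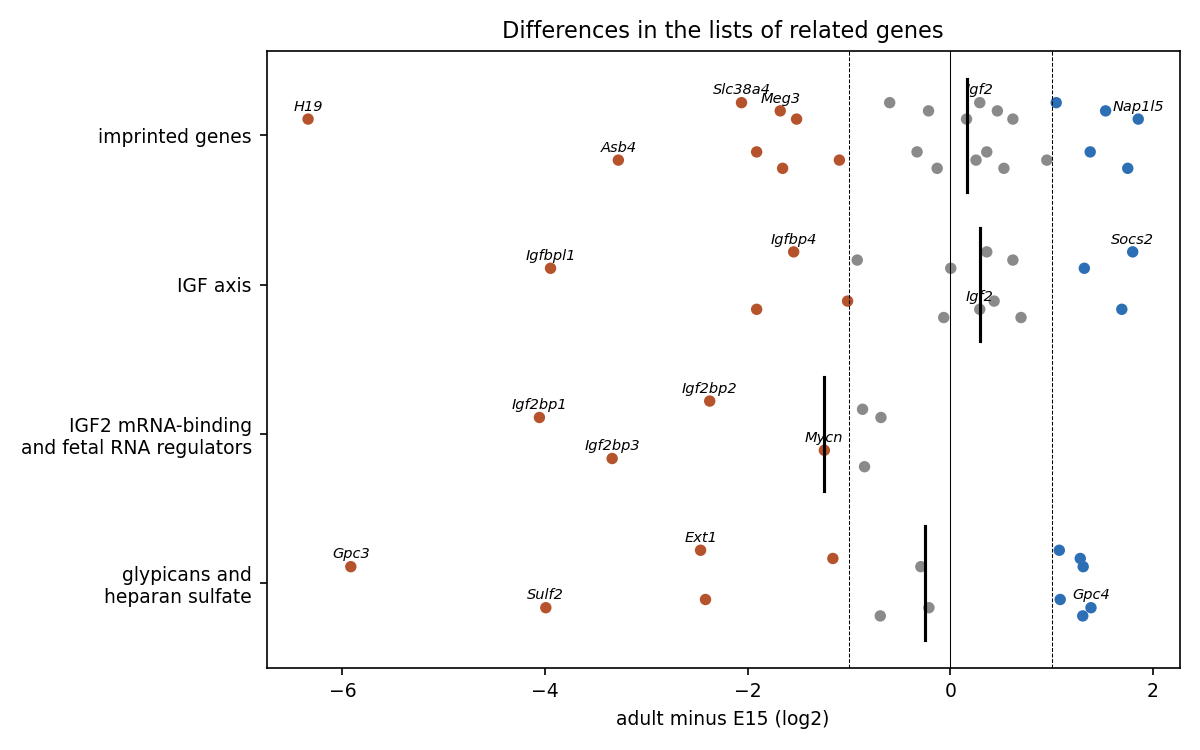
Difference (adult minus E15, log2) of each cluster found for 4 gene lists, with orange for at least 2-fold toward E15, blue for at least 2-fold toward adult, grey for less, dashed lines at 2-fold and a black bar at the median of the list. The medians are 0.16 for imprinted genes, 0.29 for the IGF axis, -1.24 for the IGF2 mRNA-binding and fetal RNA regulators and -0.25 for glypicans and heparan sulfate. The vertical offset of points within a list has no meaning.

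The members were also set against clusters with the same annotation in the deposited ontology text. Over all clusters 24.4% were enriched at E15 and 22.9% in adult, and the member that carries a term is among the clusters counted for it. Igfbpl1 carries the term insulin-like growth factor binding and, of the 7 clusters with this term, 4 were enriched at E15 and 0 in adult, or 3 of 6 without Igfbpl1 itself, and re-centring left 1 of 7, Igfbpl1. Besides the genes given above, the 4 included Cyr61, a matrix protein of the CCN family, with -1.82, while its relative Wisp1 was below 2-fold with -0.61. Igfbpl1 also carries regulation of cell growth, with 7 of 21 clusters enriched at E15 and 4 in adult. Without Igfbpl1, 6 of 20 lay toward E15. Re-centred, this term had 1 of 21 toward E15, Igfbpl1, and 5 toward adult. Igf2bp3 carries regulation of translation. Of the 12 clusters with this term, the 3 Igf2bp genes were those enriched at E15, or 2 of 11 clusters without Igf2bp3. Cpeb1 (2.23), which controls polyadenylation in the cytoplasm, and Aplp1 (1.21) were enriched in adult. Re-centred, 3 of 12 lay toward E15 and 4 toward adult, beside 7.71% and 26.1% of the clusters of both tables.

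Gpc3 carries organ morphogenesis, with 14 of 31 clusters enriched at E15 and 2 in adult (13 of 30 toward E15 without Gpc3), and negative regulation of cell proliferation, with 12 of 30 and 6 (11 of 29 without Gpc3). Over all clusters these shares were 24.4% and 22.9%. It also carries anchored to membrane, where 7 of 30 were enriched at E15 and 8 in adult (6 of 29 toward E15 without Gpc3). After re-centring these 3 terms had 7 of 31, 5 of 30 and 2 of 30 clusters toward E15, beside 7.71% of the clusters of both tables. Without Gpc3, chosen for its difference, these were 6 of 30, 4 of 29 and 1 of 29. Toward adult the re-centred counts were 2, 6 and 8, beside 26.1% of the clusters of both tables. H19 carries polysome, as does Ybx2 with -0.55. Meg3 has no ontology term in the file, and no term was shared by more than 2 members.

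Several marker lists of other cells lay on the same side as the members, and their counts stand beside 24.4% of all clusters toward E15 and 22.9% toward adult. Of the 23 genes of mesenchyme and matrix, 18 had a cluster, 16 were enriched at E15 and 0 in adult, with differences from -3.14 to -0.13, the last that of Postn, whose sign turns on re-centring. All 27 clusters of the 30 cell cycle genes were enriched at E15, from -4.65 for Top2a, which untangles replicated DNA, to -1.06. Erythroid genes gave 7 of 10 clusters toward E15 and 0 toward adult, led by Hbb-y with -5.55, and endothelial genes 5 of 7 and 0. Neuron and progenitor genes gave 6 of 10 toward E15 and 3 toward adult, among them Camk2a with 2.66, and macrophage genes 1 of 8 and 4. After re-centring, 11 of the 15 mesenchyme clusters of the gene-level table were at least 2-fold toward E15, as were 22 of the 27 cell cycle clusters, all 7 erythroid ones, 1 of the 5 macrophage ones, 1 of the 4 endothelial ones and 2 of the 7 neuron and progenitor ones, beside 15.5% of all gene-level clusters. The Y-linked Ddx3y (-4.59), Eif2s3y (-3.29) and Kdm5d (-2.53) were higher at E15, the age whose pools are labelled as mixed in sex. Their part in the values of H19, Gpc3 and the other members was not tested.

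Choroid plexus epithelium genes gave 3 of 12 clusters toward E15 and 7 toward adult, of which 2 are clusters of Prlr and 1 of these is shared with Agxt2. They ran from -1.14 for Lmx1a to 7.87 for the prolactin receptor Prlr, and after re-centring 0 of the 10 in the gene-level table were 2-fold toward E15. The defining epithelial genes Ttr, Kcnj13, Folr1, Aqp1, Clic6 and Otx2 had no entry in either table. Since the values carry no level, the labelled tissue could not be checked by the abundance of its markers.

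**Figure D5:**
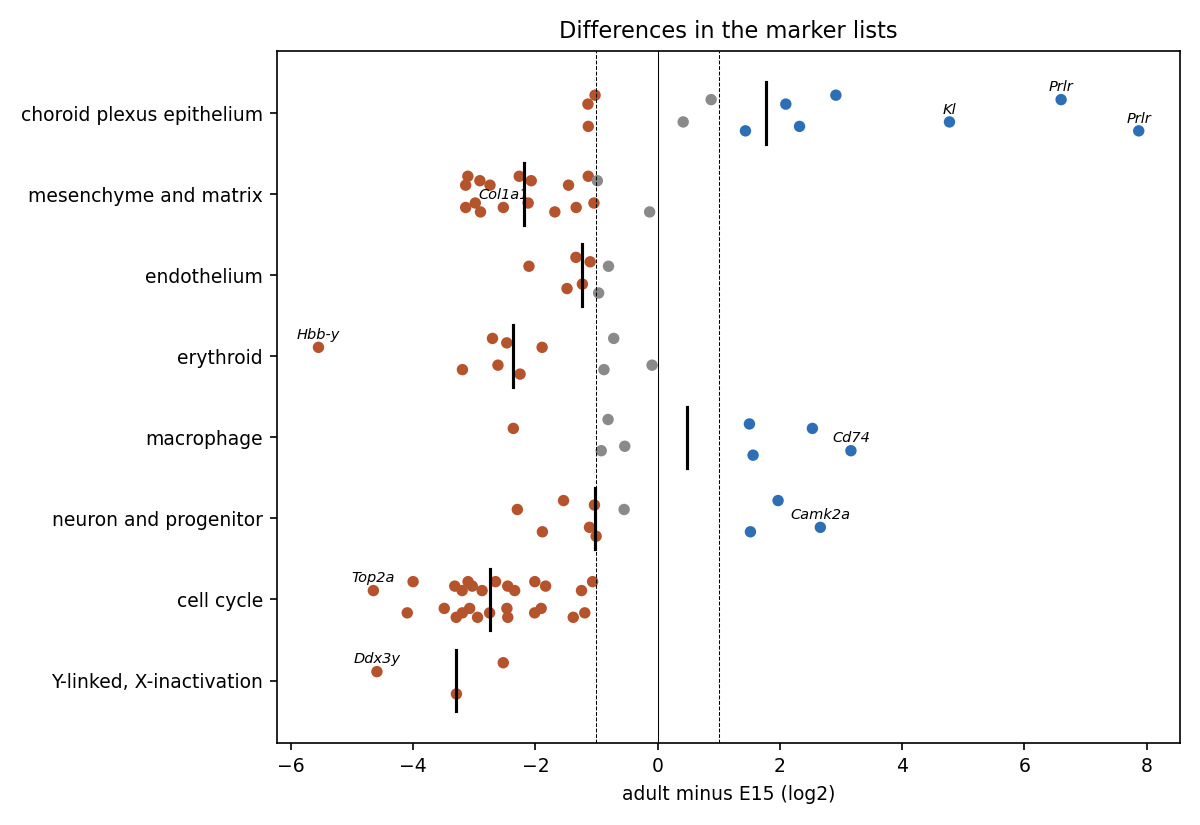
Difference (adult minus E15, log2) of each cluster found for 8 marker lists, with orange for at least 2-fold toward E15, blue for at least 2-fold toward adult, grey for less, dashed lines at 2-fold and a black bar at the median. Mesenchyme (median -2.19) and cell cycle genes (-2.75) lie to the left and choroid plexus epithelium (1.77) to the right. The vertical offset of points within a list has no meaning.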

How the data were processed

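Total RNA of 3 E15 and 3 adult pools was measured on Affymetrix exon arrays. The authors made the log2 values with Affymetrix Power Tools and RMA (versions and genome build are not given in the sources used here), with an unpaired test and Benjamini-Hochberg correction at 0.05 and a fold of at least 2 for the gene-level table. Per the file headers, the splicing index table was chosen by a splicing analysis of variance and also lists the number of probe sets. Their columns of fold changes, directions and splicing indices were not used. The merged values of shared clusters were identical in all 3 tables.

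The tables hold 0 columns of single arrays, so no test could be run. Differences, folds and counts were computed with Python 3.11.15 and pandas 2.3.3, and the counting was tested on simulated data. Members were matched as whole entries of the symbol field, and other genes also through RefSeq synonyms (3896 of 3951 clusters with a symbol matched). The members and gene lists were chosen with earlier results of these data known. The genes named were the members, list genes with a cluster, the 10 nearest genes on each side and the clusters next in the order of the difference. Classes of the ontology text and Trpm5, Evl and Mpp6 were added after their values were seen. With no values of single arrays in the tables, changes of up to 1.5 times under an alternative were counted as no change.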

Additional observations from a re-analysis of the deposited data

How the results depend on the processing

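Re-centring each age on the median of its table added 0.85 to every difference of the gene-level table and 0.16 to those of the splicing index table. The members' differences were then -5.48 for H19, -5.06 for Gpc3, -3.09 for Igfbpl1, -2.48 for Igf2bp3 and -1.51 for Meg3. The number of clusters enriched at E15 in the gene-level table became 4 for imprinted genes in place of 7 and 2 for the IGF axis in place of 4, while that of all clusters became 280 in place of 925. The gene-level table holds only clusters past 2-fold, so this shift follows from its selection, and clusters with equal values in both tables are shifted unequally by table. With a threshold of 3-fold the IGF axis count was 2. With 4-fold it was 1, and that of imprinted genes was 3. With the 10 nearest protein-coding genes as neighbours, chosen after seeing the data, 16 clusters were found in place of 8, and 4 in place of 1 were enriched at E15, adding Trpm5 (-2.80), Evl (-1.44) and Mpp6 (-1.51). Clusters with 1 symbol and the use of both tables moved no count of clusters enriched at E15 in the gene lists by over 1.5 times. Counts toward adult and below 2-fold were not compared in this way. The signs of Gnas and Insrr turned on re-centring, as did those of Postn and the erythroid marker Tal1. H19 and Gpc3 had the same values in the other tables. Each member had 1 cluster, so the choice among clusters could not be varied.

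No paired analysis was possible because the columns carry merged values and no replicate number, and leaving out each replicate was not run for the same reason. Signal over background cannot be read from centred values. By the study's description, clusters of the splicing index table (H19, Gpc3 and Meg3 among them) passed a filter on detection above background at both ages, and the gene-level table a filter on expression in the replicates.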
